A study of Homo sapiens with 7 samples.

Results

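The HOXC cluster is a row of 9 homeobox genes on human chromosome 12. Its H3K4me3, the trimethyl mark on lysine 4 of histone H3 that sits at active and poised promoters, is described here region by region. The regions were selected by position, as all those of the deposited table (hg19) that overlap chr12:54325000-54455000, and 17 of 30840 regions do so. The cluster itself was chosen on the RPM values of these libraries, which were known beforehand, so its values are a description and carry no test.

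The data are chromatin immunoprecipitation and sequencing (ChIP-seq) of H3K4me3 in HCT116, a human colon cancer line. All groups lack KDM5A, a demethylase that removes this mark (genotype KDM5A-/-), and were fixed 24 h after they received 1 of 3 plasmids: the empty vector, KDM5A in its wild-type form, or a mutant form of KDM5A. The series title asks how methylation of KDM5A by SMYD2, a lysine methyltransferase, bears on its activity; the labels name neither the changed residue nor the knockout clone. There is 1 H3K4me3 library per transfection, so no difference below has a replicate check or a p-value, and each interval is a 95% interval for counting error alone. PCR copies are not independent molecules.

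Values are in RPM, the reads of a region per 1000000 reads of its library, so all libraries have equal totals. The libraries held 10713021 reads (empty vector), 10852411 (wild-type KDM5A) and 9906508 (mutant KDM5A), and a count of 0 would allow up to 0.280, 0.276 and 0.303 RPM (3 reads) in this order. Both ratios to the empty vector share that 1 library. Summed over all 30840 regions, signal was 9.46% lower with wild-type and 15.1% lower with mutant KDM5A, and the median log2 ratios of all regions were −0.11 and −0.18. With equal totals, less mark at most regions and a smaller part of the reads falling in regions cannot be told apart.

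HOX genes encode transcription factors that give cells their position along the body axis, and their order on the chromosome follows the order in which they are used in the embryo. Where they are silent, Polycomb complexes cover the cluster with H3K27me3, often together with some H3K4me3 at promoters, a state called bivalent. KDM5A was shown to act at HOX genes in other cells. In the RefSeq gene table (GRCh38.p14) the order runs HOXC13, HOXC12, HOXC11, HOXC10, HOXC9, HOXC8 and then HOXC6, HOXC5 and HOXC4, which overlap and share their listed start. HOXC13 is known from hair and nail growth, HOXC12, HOXC11 and HOXC10 from the hind part of the trunk and the hindlimb, HOXC9 and HOXC8 from the thorax, and HOXC6, HOXC5 and HOXC4 from the neck and upper thorax. HOTAIR, a long noncoding RNA, lies between HOXC12 and HOXC11, and the microRNA genes MIR196A2 and MIR615 lie between HOXC10 and HOXC9 and inside the shared HOXC4 to HOXC6 stretch. No gene table of the regions' own build was used, so no region is given to a single gene; regions are numbered 1 to 17 from the HOXC13 end to the HOXC4 end.

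Promoter sequence was listed for 2 of the 9 genes, HOXC4 and HOXC5, and it is the same sequence, from 250 bases before to 50 after their shared start (RefSeq, GRCh38.p14, plus strand, chr12:54016638-54016937, not comparable with the hg19 positions). It is shown because the upstream start it holds is shared by genes at the HOXC4 end, with each CG in capitals:
HOXC4 and HOXC5: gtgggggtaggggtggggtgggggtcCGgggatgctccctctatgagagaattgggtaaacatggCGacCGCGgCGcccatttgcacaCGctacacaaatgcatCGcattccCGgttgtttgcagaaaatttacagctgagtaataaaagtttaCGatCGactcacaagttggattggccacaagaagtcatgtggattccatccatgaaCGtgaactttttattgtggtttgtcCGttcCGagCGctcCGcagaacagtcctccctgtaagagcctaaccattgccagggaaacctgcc
It holds 15 CG steps, where the median of 34796 promoter sequences of this length is 14, and 51.7% of its bases are G or C, against a median of 58.7%. Read on both strands, CCAAT occurs 2 times (34.6% of promoters hold it). TATAAA, held by 11.6% of promoters, CCGCCC, the motif known for the DNA-binding domain of KDM5A and held by 44.9%, and TAATTA, held by 4.86%, do not occur in this window. TAATTA is a core read by homeodomains. These motifs do not overlap one another.

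The 17 regions covered 35.5 kb of the 130 kb window, with a median width of 1994 bp against 1268 bp over all regions. Their summed levels were 327 RPM in the empty vector library, 259 RPM in the wild-type and 236 RPM in the mutant KDM5A library. Relative to the empty vector the window was thus 1.26-fold lower in the wild-type library (1.20 to 1.32) and 1.38-fold lower in the mutant library (1.31 to 1.46). These sums hide very unequal parts. Without the region of the highest level, region 9, the sum was 1.34-fold lower with wild-type (1.26 to 1.43) and 1.47-fold lower with mutant KDM5A (1.37 to 1.58).

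**Figure D1:**
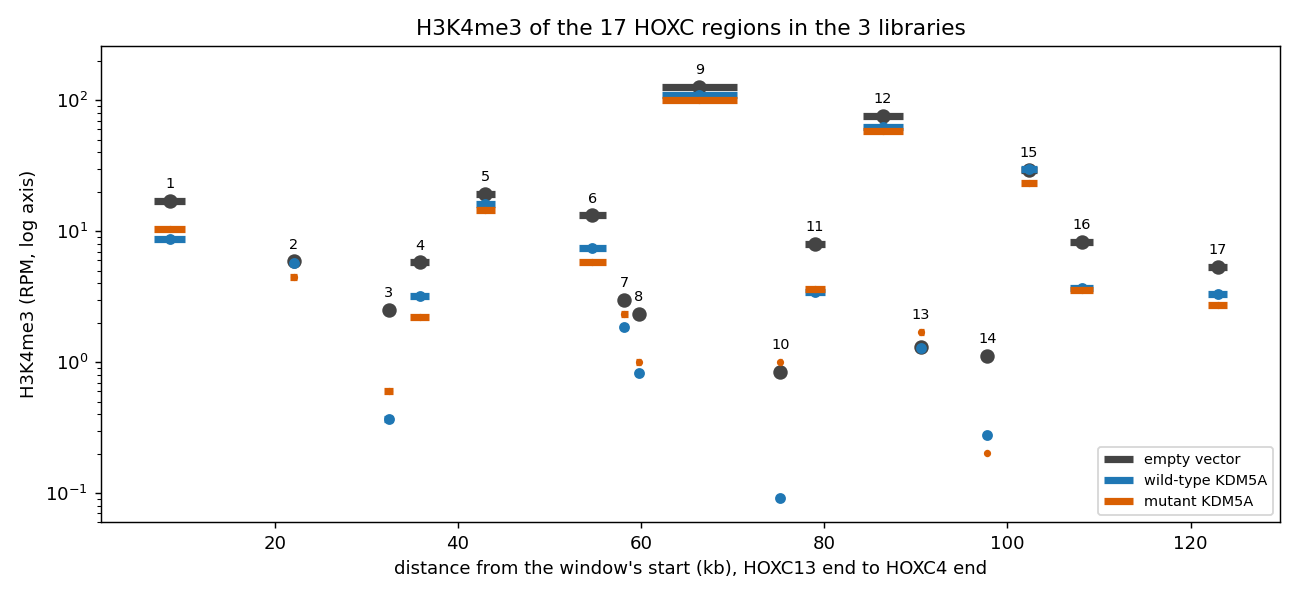
RPM (log axis) of each of the 17 HOXC regions in the 3 libraries, against the distance from the window's start in kb; bars span a region's width and dots mark its centre, larger for the empty vector. The 3 strongest regions (9, 12 and 15) lie at most 1.31-fold below the empty vector, a small step on this axis, while regions such as 1, 4, 6, 11 and 16 stand clearly higher with the empty vector.

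Regions 1 to 4 lie at the HOXC13 end. Region 1, at chr12:54331832-54335214 and 3383 bp wide, had levels of 17, 8.66 and 10.4 RPM for the empty vector, wild-type and mutant KDM5A, 1.96-fold (1.52 to 2.54) and 1.63-fold (1.28 to 2.10) lower. Region 2, at chr12:54346694-54347397, had 5.88, 5.71 and 4.44 RPM in the same order, with ratios to the empty vector of 0.971 (0.673 to 1.40) and 0.755 (0.502 to 1.13). Region 1 was thus lower with both forms of KDM5A beyond counting error, and region 2 with neither. Region 3, at chr12:54356931-54357895, had 2.52, 0.369 and 0.606 RPM, from 27, 4 and 6 reads, and was 6.84-fold (2.38 to 26.9) and 4.16-fold (1.68 to 12.3) lower. Region 4, at chr12:54359804-54361797, had 5.79, 3.23 and 2.22 RPM, 1.79-fold (1.17 to 2.80) and 2.61-fold (1.58 to 4.45) lower. The empty vector library was the highest at all 4.

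Regions 5 to 8 follow towards the middle. Region 5, at chr12:54366922-54369062, had 19.2, 16 and 14.4 RPM for the empty vector, wild-type and mutant KDM5A, 1.20-fold (0.975 to 1.48) and 1.33-fold (1.07 to 1.66) lower. Region 6, at chr12:54378170-54381112, had 13.3, 7.46 and 5.85 RPM, 1.78-fold (1.34 to 2.36) and 2.26-fold (1.66 to 3.13) lower. Region 5 was thus lower beyond counting error with the mutant alone, and region 6 with both forms. Between mutant and wild-type KDM5A the ratio of region 5 was 0.900 (0.717 to 1.13), so no difference between the forms is shown there. Region 7, at chr12:54382750-54383524, had 2.99, 1.84 and 2.32 RPM, and both its intervals include no difference. Region 8, at chr12:54384441-54385031, had 2.33, 0.829 and 1.01 RPM, 2.81-fold (1.27 to 6.85) and 2.31-fold (1.07 to 5.39) lower. Again the empty vector library was the highest at each.

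Region 9, at chr12:54387262-54395419, dominated the cluster. It was 8158 bp wide, and 0.120% of all listed regions were wider. Its levels were 127, 111 and 100.4 RPM for the 3 plasmids in the same order, 1.15-fold (1.06 to 1.24) and 1.27-fold (1.17 to 1.38) lower. Of the window's signal it and regions 12 and 15 held 71.2%, 78.3% and 77.1%. The next strongest, region 12 at chr12:54409220-54413552 (4333 bp), had 75.9, 62.8 and 57.9 RPM, 1.21-fold (1.09 to 1.34) and 1.31-fold (1.18 to 1.46) lower. Region 15, at chr12:54426452-54428216, had 29.5, 29.7 and 23.4 RPM. It was the 1 region that was not lower with wild-type KDM5A, at a ratio of 1.01 (0.859 to 1.18), and it was 1.26-fold lower with the mutant (1.06 to 1.5). These 3 were the members with a mean of 20 RPM or more. Over them the sum was 12.7% lower with wild-type (7.5% to 17.6%) and 21.9% lower with mutant KDM5A (17% to 26.5%). Over the 10884 other regions of this level it was 9.99% and 15.7% lower.

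Between and beyond the strong regions lay weaker ones. Region 11, at chr12:54402890-54405064, had 8.03, 3.41 and 3.63 RPM for the empty vector, wild-type and mutant KDM5A, 2.35-fold (1.58 to 3.56) and 2.21-fold (1.48 to 3.36) lower. Region 16, at chr12:54431824-54434357, had 8.31, 3.69 and 3.53 RPM, 2.25-fold (1.54 to 3.36) and 2.35-fold (1.57 to 3.58) lower. Region 17, the last at the HOXC4 end, at chr12:54446935-54448959, had 5.32, 3.32 and 2.73 RPM, 1.60-fold (1.04 to 2.51) and 1.95-fold (1.22 to 3.21) lower. At these 3 the KDM5A libraries lay close to each other and well below the empty vector.

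The remaining 3 regions were narrow and rest on few reads. Region 10, at chr12:54400031-54400358, had 0.840, 0.0921 and 1.01 RPM, from 9, 1 and 10 reads. Its ratios to the empty vector were 0.110 (0.00250 to 0.792) and 1.20 (0.439 to 3.34). Region 13, at chr12:54415314-54415835, had 14, 14 and 17 reads, or 1.31, 1.29 and 1.72 RPM. Regions 10 and 13 were the only members above the empty vector with the mutant, both with intervals that include no difference. Region 14, at chr12:54422702-54422912 and 211 bp wide, had 12, 3 and 2 reads, or 1.12, 0.276 and 0.202 RPM, with ratios of 0.247 (0.0447 to 0.914) and 0.180 (0.0196 to 0.810).

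**Figure D2:**
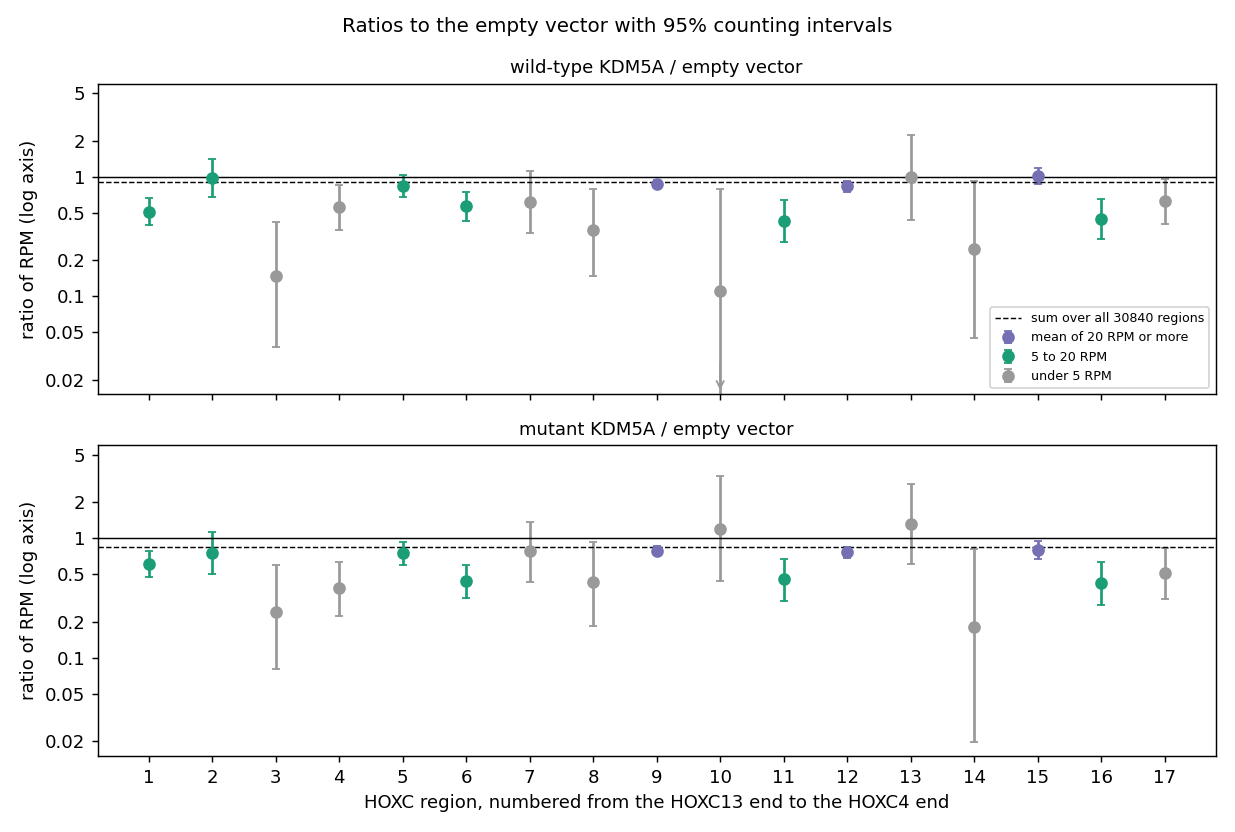
Ratio of RPM (log axis) of wild-type and of mutant KDM5A to the empty vector for the 17 HOXC regions, with 95% counting intervals (1 library per group); colours give the mean level, and the dashed line is the ratio of sums over all 30840 regions (0.905 and 0.849). The lower end of the interval of region 10 in the upper panel, 0.00250, lies beyond the axis. In the lower panel regions 2, 5, 7, 9, 12 and 15 lie together just below the dashed line, between 0.751 and 0.794, and most other members lie further down.

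Counted over the cluster, 16 of 17 regions were below the empty vector in the wild-type library and 15 of 17 in the mutant library, 14 of them in both. Over all 30840 regions 66.7% and 70.5% were below it, and 17797 regions were below it in both. The interval lay below a ratio of 1 for 12 members with wild-type and 13 with mutant KDM5A, where this held for 20.1% and 31.7% of all regions. It lay above 1 for 0 members with either form, against 3.56% and 3.49%. For calls, 0.7 RPM was added to each value before the log2 ratio was taken, which makes the ratios of weak regions smaller. At least 1.5-fold lower were 9 members with wild-type KDM5A, where 6.53% of all 30840 regions were, and 0 members were higher, against 6.23%. With mutant KDM5A 9 were lower, against 8.15%, and 0 higher, against 6.61%. Lower with both were 8, against 3.8% of all regions, in comparisons that share the empty vector library: regions 1, 3, 4, 6, 8, 11, 14 and 16. Region 10 was added with wild-type and region 17 with mutant KDM5A. With wild-type KDM5A region 17 fell just short, at −0.584 against the threshold of −0.585. The median log2 ratio of the 17 was −0.72 with wild-type and −0.67 with mutant KDM5A. It depended on the weak members: among the 9 regions with a mean of 5 RPM or more it was −0.27 and −0.40, and with a pseudocount of 3.5 RPM it was −0.29 and −0.37 over the 17.

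Weak regions scatter more than strong ones, so the members were also set beside regions of their own level. Of the 6 members with a mean of 5 to 20 RPM (regions 1, 2, 5, 6, 11 and 16), 4 were at least 1.5-fold lower with wild-type KDM5A, where 3.3% of the 4239 regions of this level were. With mutant KDM5A the same 4 were lower, regions 1, 6, 11 and 16, against 6.63%. Regions 11 and 16, with means of 5.02 and 5.18 RPM, reached this level only through the empty vector library and so had to be lower with KDM5A, which makes these counts no measure of the members. The highest members below the level were regions 17 and 4, with 3.79 and 3.74 RPM. With the level read instead in the KDM5A library that the ratio does not use, a choice made after the values were seen, regions 11 and 16 drop out. Region 2, not 1.5-fold lower with either form, also drops out of the wild-type comparison, at 4.44 RPM with mutant KDM5A. Then 2 of 3 members were lower with wild-type KDM5A, against 2.2% of 4359 regions, and 2 of 4 with mutant KDM5A, against 5.9% of 4307 regions. They were regions 1 and 6 both times.

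The strong members did not share 1 place among regions of 20 RPM or more outside the window. With wild-type KDM5A, 31.1% of those regions had a lower log2 ratio than region 9, 12.7% than region 12 and 92.4% than region 15. With mutant KDM5A the shares were 19.8%, 11.1% and 23.5%. All 3 thus lay in the lower part of their level with the mutant, and region 15 in the upper part with wild-type KDM5A.

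The members also differed in density, the level per kb of width, which makes regions of unequal width comparable. With wild-type KDM5A 5 regions had 5 RPM per kb or more: region 15 with 16.8, region 12 with 14.5, region 9 with 13.6, region 2 with 8.12 and region 5 with 7.49. The other 12 had between 0.281 (region 10) and 2.56 RPM per kb (region 1), so that no member lay near the limit. With the empty vector regions 1 and 14 reached it too, at 5.02 and 5.31 RPM per kb. Mutant KDM5A put all 17 in the same class, with 6.31 to 13.4 RPM per kb in the denser class. This limit, and the width limit below, were chosen after the values were seen. The ratio of the mutant library to the empty vector does not use the wild-type library. Both KDM5A libraries gave the same classes, however, so the split is not independent of that ratio. In the denser class the ratio ran from 0.751 (region 5) to 0.794 (region 15). Among the other members it ran from 0.180 (region 14) to 1.31 (region 13). Regions 1 and 14 reached the limit with the empty vector only, so a low ratio helped to put them among these.

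Below that density, 6 members were at least 1.5 kb wide: regions 1, 4, 6, 11, 16 and 17. They summed to 57.7, 29.8 and 28.4 RPM for the empty vector, wild-type and mutant KDM5A, 1.94-fold (1.69 to 2.22) and 2.03-fold (1.76 to 2.35) lower. Their share of the window's signal was 17.7% with the empty vector, 11.5% with wild-type and 12% with mutant KDM5A. At least 1.5-fold lower with mutant KDM5A were 6 of these 6, where 15.1% of all 1921 regions as wide and below 5 RPM per kb with wild-type KDM5A were. With the density read from the mutant library in turn, 5 of 6 were lower with wild-type KDM5A, where 11.9% of 2003 such regions were. A low level with KDM5A helps to put a region in this class, and both KDM5A libraries give the members the same classes, so these counts are a description. With the density read in the empty vector library, which favours regions that are not lower with KDM5A, region 1 leaves the class. Of the other 5, 4 were then lower with wild-type KDM5A, against 11.1% of 1821 regions, and 5 with mutant KDM5A, against 13.4%. Outside the window, 1915 regions were as wide and below 5 RPM per kb with wild-type KDM5A. Their median log2 ratio between the mutant and empty vector libraries was −0.06 (quartiles −0.35 and 0.18). The 6 members of that class, region 1 included, had a median of −1.05. It is again the class that a low level with KDM5A helps to enter. The 6 narrower members of low density (regions 3, 7, 8, 10, 13 and 14) summed to 11.1, 4.70 and 6.86 RPM. The 5 dense members summed to 258, 225 and 201 RPM, and their median log2 ratio between the mutant and empty vector libraries was −0.36. The 14395 dense regions outside the window had −0.24 (quartiles −0.33 and −0.15).

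**Figure D3:**
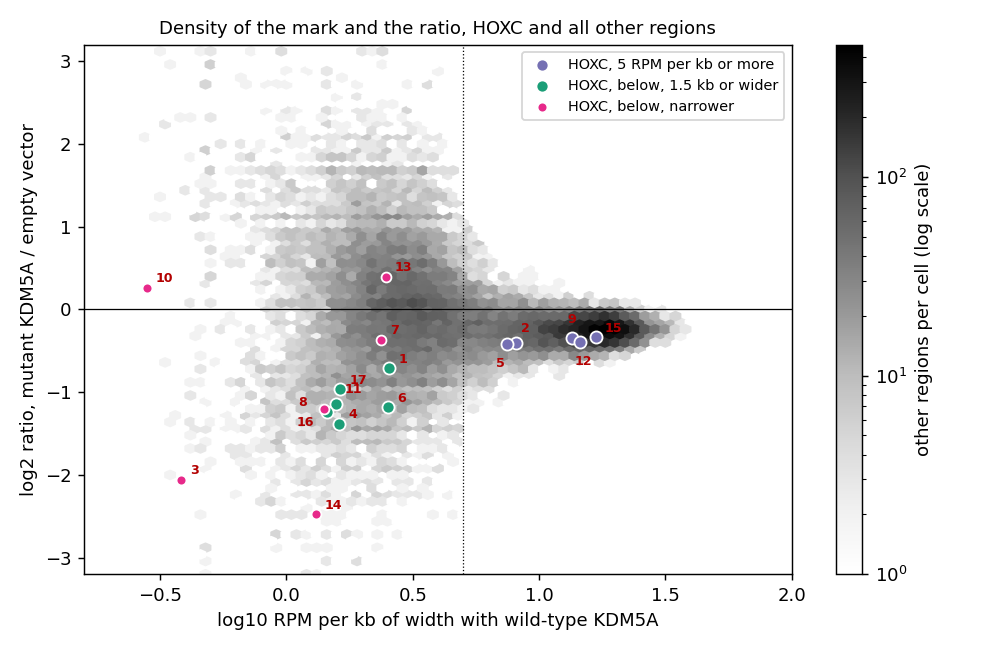
Log2 ratio of RPM between the mutant KDM5A and empty vector libraries (no pseudocount) against the log10 RPM per kb with wild-type KDM5A, for the HOXC regions (coloured and numbered) and all other regions (grey cells, count on a log scale; regions with 0 reads in a library or beyond the axes are not drawn). The dotted line marks 5 RPM per kb; the 5 dense HOXC regions lie in the lower part of the narrow band of other dense regions, at ratios of 0.751 to 0.794, and the 6 wide members of low density (green) lie between ratios of 0.384 and 0.612.

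Scaling moves every ratio by the same factor, which matters most where the ratio is near 1, as at the dense members. Scaling to a median ratio of 1 among regions at or above the median level raised the median log2 ratio of all regions by 0.13 for wild-type and 0.22 for mutant KDM5A. The genome-wide counts past 1.5-fold then went from 2015 lower and 1922 higher to 1549 and 2671 with wild-type KDM5A, and from 2512 and 2040 to 1547 and 3409 with mutant KDM5A. Under it 9 HOXC regions were still at least 1.5-fold lower with wild-type and 8 with mutant KDM5A, and 0 were higher. The region no longer past 1.5-fold with the mutant was region 1, at a scaled ratio of 0.723. With wild-type KDM5A regions 2 and 13 moved from below to above the empty vector, to ratios of 1.07 and 1.09. With mutant KDM5A no member changed direction, and regions 2, 5, 9, 12 and 15 had ratios of 0.892, 0.886, 0.931, 0.901 and 0.937. No intervals were computed for scaled ratios. Whether these dense members stay lower beyond counting error after scaling was not tested, and the intervals given above hold for unscaled ratios only.

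Mutant and wild-type KDM5A were close over the cluster. The sum was 1.10-fold lower with the mutant (1.04 to 1.16), where the sum over all regions was 1.07-fold lower. Of the 17 regions 10 were lower and 7 higher with the mutant, where 63.7% of all 30840 regions were lower, so this count does not set the cluster apart. At least 1.5-fold lower were 0, against 5.45% of all regions, and 1 was higher, against 5.19%. That 1 was region 10, with 1 read against 10. Genome-wide 1682 regions were at least 1.5-fold lower and 1601 at least 1.5-fold higher with the mutant, and 1332 and 1984 after scaling to a median ratio of 1. The interval of the ratio lay below 1 at 2 members, against 10.8% of all regions, and above 1 at 1 member, against 2.89%. Region 15 was 1.27-fold lower with the mutant (1.07 to 1.51) and region 9 1.10-fold lower (1.01 to 1.20), while region 10 had a ratio of 10.95 (1.56 to 475). Over the 6 wide members of low density the ratio was 0.953 (0.809 to 1.12). That interval covers counting error alone and includes no difference.

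The surroundings were read for comparison, 39 regions within 500 kb on either side of the window. Their sum was 10.7% lower with wild-type (7.72% to 13.7%) and 10.7% lower with mutant KDM5A (7.56% to 13.7%), where the HOXC window was 20.6% (16.5% to 24.5%) and 27.8% (23.9% to 31.5%) lower. These sums are not matched for level. At 20 RPM or more the surroundings were 11.5% and 10.2% lower, against 12.7% and 21.9% for the HOXC members of that level. At 5 to 20 RPM they were 6.69% and 14.8% lower, against 37.3% and 41%. Under 5 RPM they were 10.8% and 5.09% lower, against 49.4% and 46.8%. Members 11 and 16 reached 5 to 20 RPM only through the empty vector library and so had to be lower with KDM5A. Members 4 and 17 fell under 5 RPM only through the KDM5A libraries. The contrasts below 20 RPM are thus a description and no measure of the members. At least 1.5-fold lower were 4 of the 39 with wild-type and 3 with mutant KDM5A, and 1 with both. Over all 30840 regions the shares were 6.53%, 8.15% and 3.8% in this order. On the HOXC13 side the first listed region, chr12:54261797-54262548, lies 62.5 kb before the window and had 1.12, 1.66 and 1.01 RPM. On the HOXC4 side the first, chr12:54475003-54476355, lies 20 kb beyond it and had 2.61, 0.737 and 1.01 RPM, 3.55-fold (1.57 to 9.0) and 2.59-fold (1.22 to 5.97) lower. It was the 1 region outside the window, within 500 kb, that was past 1.5-fold lower with both. The next, chr12:54518898-54522024, had 6.35, 2.86 and 4.44 RPM, with ratios of 0.450 (0.284 to 0.698) and 0.70 (0.468 to 1.04), so it was lower beyond counting error with wild-type KDM5A alone. After it came chr12:54552852-54553532, with 1.77, 2.03 and 1.62 RPM and ratios of 1.14 (0.590 to 2.23) and 0.911 (0.438 to 1.87).

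**Figure D4:**
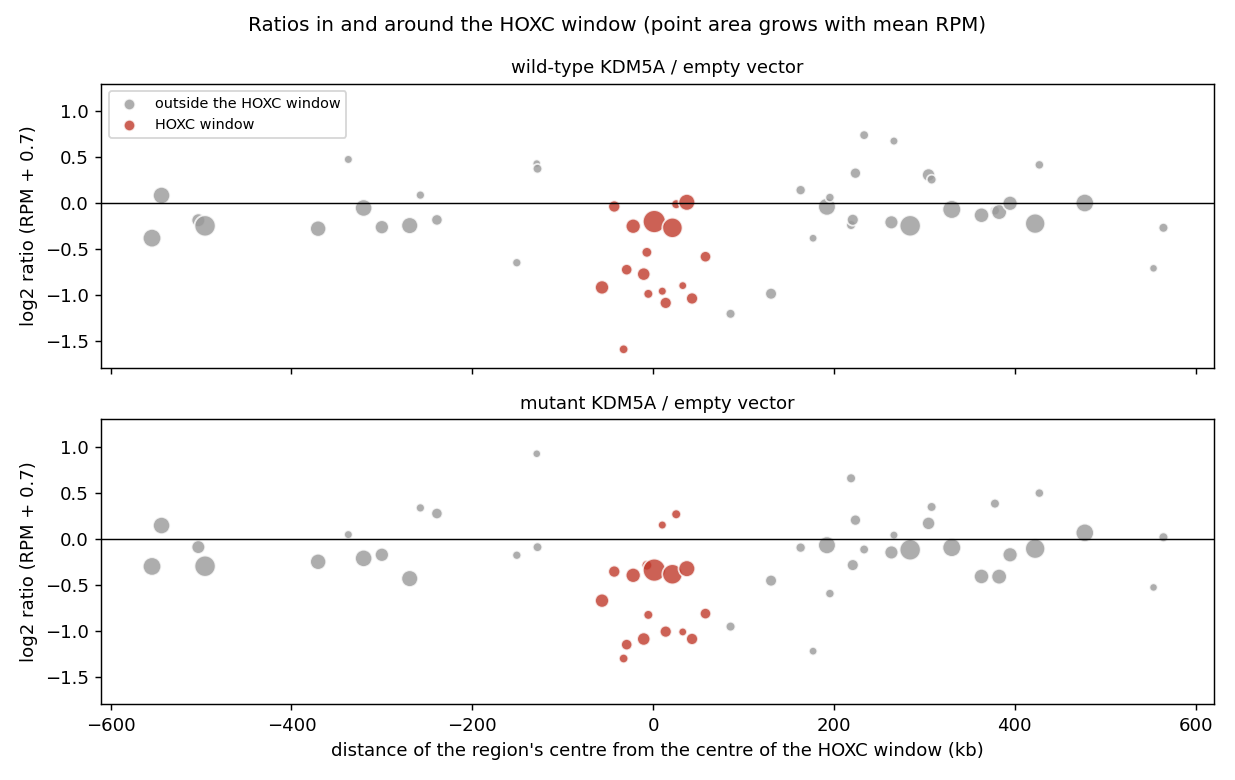
Log2 ratio of RPM plus 0.7 to the empty vector for the 17 HOXC regions (red) and the 39 regions within 500 kb of the window (grey), against the distance from the window's centre in kb; point area grows with mean RPM. In each panel most grey points lie close to 0, and the red points include 9 at or below −0.585 in each panel.

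The summed window was not alone in its ratios. Of 10884 regions of 20 RPM or more outside it, 111 lay within 0.05 of it as a distance in the plane of the log2 ratios to the empty vector, which rest on 3 libraries. The nearest were chr7:8007719-8009983, chr16:575300-579766 and chr1:6548985-6552240, at distances of 0.0024, 0.0035 and 0.0054.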

How the data were processed

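H3K4me3 ChIP-seq libraries of the 3 transfections were used; the 3 input libraries and the pooled IgG library were left out, and values are not corrected for background. The deposited table gives RPM per region, as the authors computed it. Per the submitters' processing notes the tools named are deepTools 3.5.6, HOMER, MACS2, MACS and Bowtie2 2.5.4, and the build is hg19. The sources used here do not say on which libraries regions were called or how reads were counted. The header of the empty vector column says H3K4me4, read as a slip for H3K4me3.

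Within a library, RPM values came in whole multiples of the value of 1 read (within 0.02 reads for 100% of values), which gave reads and total reads. Folds are plain ratios with exact conditional (Clopper-Pearson) 95% intervals. The labels give 1 library per group, so no model was fitted. Calls at 1.5-fold used log2 ratios with a pseudocount of 0.7 RPM. Members, levels, limits and lists were chosen with earlier results of these data known. All 17 members are named; outside the window the first region on each side and the 3 most alike were named by rule, and chr12:54518898-54522024 and chr12:54552852-54553532 were named after their values were seen. Lists of HOX cofactors, trithorax, Polycomb and marker genes could not be placed without a gene table of the build and were not analysed here. The ratio steps were tested on simulated data. Intervals used scipy 1.17.1, tables pandas 2.3.3 and numpy 2.4.6, under Python 3.11.15.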

Additional observations from a re-analysis of the deposited data

How the results depend on the processing

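Of 67 recomputed values, 41 stayed within the counting interval (sums) or within 1.5 times (counts and medians). Among the 41 are counts of 0 that stayed 0. Such a count could not rise with fewer regions, a larger pseudocount or a threshold of 2-fold. Its staying at 0 there shows no stability. None of the summed ratios or medians changed direction. Scaling to a median ratio of 1 gave summed ratios of 0.878 (wild-type KDM5A to empty vector), 0.853 (mutant to empty vector) and 0.971 (mutant to wild-type), and scaling to equal sums over all regions gave 0.877, 0.850 and 0.969, in place of 0.794, 0.722 and 0.909. Without region 9 the first 2 were 0.746 and 0.680. Regions at least 1.5-fold lower, 9 for each form of KDM5A, numbered 4 and 4 among the 9 regions of a mean of 5 RPM or more, and 5 and 4 with a pseudocount of 3.5 RPM. The regions of a mean of 5 RPM or more include regions 11 and 16. These reach it only through the empty vector library and so had to be lower with KDM5A. At 2-fold, 3 regions were lower with wild-type and 6 with mutant KDM5A. The median log2 ratio was −0.27 (wild-type to empty vector, from −0.72) and −0.40 (mutant to empty vector, from −0.67) among regions of a mean of 5 RPM or more, and −0.29 and −0.37 with a pseudocount of 3.5 RPM. Scaling to a median ratio of 1 put the second at −0.45. Mutant to wild-type, the median of −0.11 became −0.022 and −0.025 under the scalings and −0.031 with a pseudocount of 3.5 RPM. With the level read in the other KDM5A library, chosen after seeing the data, 2 members of 5 to 20 RPM were lower with each form in place of 4. Regions higher with mutant than wild-type KDM5A, 1 as reported, numbered 0 at a mean of 5 RPM or more, 2 with a pseudocount of 0.07 RPM and 0 with 3.5 RPM. All 17 regions lie wholly inside the window, so that setting could change no value and is not counted above. No paired analysis was possible because each group has 1 H3K4me3 library. Depth limits the narrow regions: regions 3, 8, 10, 13 and 14 had under 30 reads in every library.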
